A study of Mus musculus with 3 samples.

Results

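The genes described here encode matrix glycoproteins of lymph node stroma: the adhesive proteins fibronectin (Fn1) and vitronectin (Vtn), the matricellular proteins Sparc, thrombospondin 1 (Thbs1), periostin (Postn) and tenascin C (Tnc), and proteins of elastic fibres and collagen fibrils, fibrillin 1 (Fbn1), elastin (Eln), tenascin X (Tnxb) and dermatopontin (Dpt). They were chosen by gene symbol, and make up 10 of the 51912 genes in the count matrices. All 10 passed the low-count filter that left 8531 genes for testing.

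The cells were live PDPN+ CD31- CD45- TdTomato+ stromal cells flow-sorted from draining lymph nodes of C57BL/6 mice with the genotype CXCL13-TdTomato+, which carry a Cxcl13-Cre/tdTomato transgene, so the sort takes cells in which the Cxcl13 sequences of the transgene drove the red label. Every mouse had received immune complexes, that is, antigen bound by antibody. In the 2-IC group, mice were given 2 different antigen complexes, the first 7 days and the second 24 hours before analysis, and 2 libraries were made (2-IC replicate 1 and 2-IC replicate 2). In the 1-IC group, mice were given 1 complex 24 hours before analysis, and 1 library was made. Nodes of several mice were pooled, and no library came from mice without immune complexes. The short names of the 2-IC libraries differ in the time they give (24 h for replicate 1, 7 d for replicate 2) although their titles state the same treatment, so the spread between them may hold a difference in treatment as well as technical spread.

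Fibroblastic reticular cells build the fibre network of the lymph node, a core of fibrillar collagen and microfibrils wrapped in basement membrane, along which lymphocytes crawl. Matrix glycoproteins organise these fibres. Fibronectin and vitronectin carry the RGD motif that integrins bind. Matricellular proteins such as Sparc and thrombospondin 1 adjust cell adhesion, collagen deposition and growth factor activity rather than bearing load, and thrombospondin 1 can activate latent TGF-beta.

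Gene expression was measured with 3' droplet sequencing, in which each captured transcript is counted once as a unique molecular identifier (UMI). Levels are given per 1000000 UMIs (CPM), summed over the cells of a library and gate. They are compared for 1 gene between cells or libraries, and not between genes. The study's quality limits (at least 200 genes, at most 10% mitochondrial UMIs and no UMI of 13 contaminant genes) left 2243 of 5486 barcodes (1526 in 2-IC replicate 1, 391 in 2-IC replicate 2 and 326 in 1-IC), with 8340981, 5669762 and 2022240 UMIs. The median cell held 4700.5, 14732 and 5979 UMIs, so replicate 2 was the deepest per cell. Between 2-IC replicates 1 and 2, 76 cell barcodes were shared, 15 of them retained in both libraries, against 2 between replicate 1 and 1-IC and 0 between replicate 2 and 1-IC.

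Retained cells were gated in order on at least 1 raw UMI of Cr2 (a complement receptor of follicular dendritic cells, FDCs; 230 cells), Madcam1 (marginal reticular cells; 83 cells), Tnfsf11 (encoding RANKL, interfollicular reticular cells; 593 cells), Fmod (fibromodulin, T-B border reticular cells; 256 cells) and Inmt (medullary reticular cells; 633 cells), and 448 cells had none of these. The markers fixed for each type, which include the gating gene, were compared between gates. All 7 FDC markers (Cr2, Cxcl13, Coch, Sox9, Clu, Fcer2a and Fcgr2b) were higher in the Cr2 gate, and 3 of them were also higher in the Madcam1 gate, with 0 lower. Their summed level was 52052, 33309 and 80254 CPM in the Cr2 gate and 36749, 28979 and 45805 CPM in the Madcam1 gate. The 3 marginal reticular markers were higher in the Madcam1 gate but also in the Cr2 gate. Both interfollicular markers were higher in the Tnfsf11 and Madcam1 gates, and all 3 medullary markers were higher in the Inmt gate. The gating itself fixed much of this for the gating genes, since it held Madcam1 and Tnfsf11 at 0 in the Fmod and Inmt gates. Apart from gating genes, the marginal list holds only Cxcl13, whose sequences drove the label used for sorting. The interfollicular list holds only Ch25h and the medullary list Nr4a1 and Cyp2f2. Nr4a1 is also in the list of 20 immediate early and stress genes used below, of which 16 were higher in the Inmt gate. Of the T-B border markers only Fmod itself was tested, because Ccl21a and Ccl19 each name more than 1 row, so the Fmod gate was not tested beyond its gating gene. Ccl21a stood at 11339, 9843 and 11954 CPM in the Fmod gate, above the other 4 gates of each library. The summed level of the 3 T-B border markers was 14114, 12084 and 15770 CPM in the Fmod gate. In cells of no gate, which hold no Fmod, it was 8613, 7536 and 16102 CPM, so in 1-IC it was no lower than in the Fmod gate. The gates are therefore named by their gating gene. At least 2 of the gating genes were found in 33.7%, 48.6% and 31.6% of retained cells of the 3 libraries, and the smallest sum, the Madcam1 gate of 2-IC replicate 2, held 16 cells. In the retained cells of a library the summed level of the 6 macrophage markers lay between 34.4 and 168 CPM. That of the 4 T cell markers lay between 1.94 and 3.12 CPM, with Trac and Cd3d at 0 by the contaminant filter. That of the 6 endothelial markers lay between 6.17 and 9.89 CPM, with Lyve1 and Cldn5 at 0 by the same filter. The 5 B cell markers summed to 631, 223 and 911 CPM in the 3 libraries, although the filter held Cd79a and Cd79b at 0.

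Vtn, Sparc, Thbs1 and Dpt, which encode vitronectin, osteonectin, thrombospondin 1 and dermatopontin, were all higher in the Fmod gate and lower in the Cr2 gate than in the mean of the other gates. Tnc was higher in the Madcam1 gate and lower in the Fmod gate, Postn, Fbn1, Vtn and Dpt were higher in the Inmt gate, and Fn1 did not pass in any gate. Members were compared with edgeR's quasi-likelihood test on the 15 sums of 5 gates and 3 libraries, with the library as a block. 9 of the 10 members differed between the gates, where 25.3% of all genes tested passed (F test, adjusted p < 0.05), and Fn1 was the exception (adjusted p = 0.361). Of 50 differences, each gate against the mean of the other 4, 22 passed. In the Cr2 gate 1 member was higher and 5 were lower, where 20.9% of all genes passed (11.9% higher, 9.04% lower). In the Madcam1 gate 1 was higher and 5 lower, where 5.27% of all genes passed (2.73% higher, 2.54% lower). In the Fmod gate 4 were higher and 1 lower, where 8.69% passed (5.52% higher, 3.16% lower). In the Inmt gate 4 were higher and 1 lower, where 13.6% passed (8.03% higher, 5.56% lower). In the Tnfsf11 gate 0 members passed by edgeR or by DESeq2, where 5.32% of all genes passed by edgeR (2.82% higher, 2.5% lower). An unadjusted edgeR p under 0.05 was found there for 7 members and for 1337 of all 8531 genes. Without the library block 7 of the 22 passed, and leaving out a library kept between 15 and 19 of them.

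**Figure D1:**
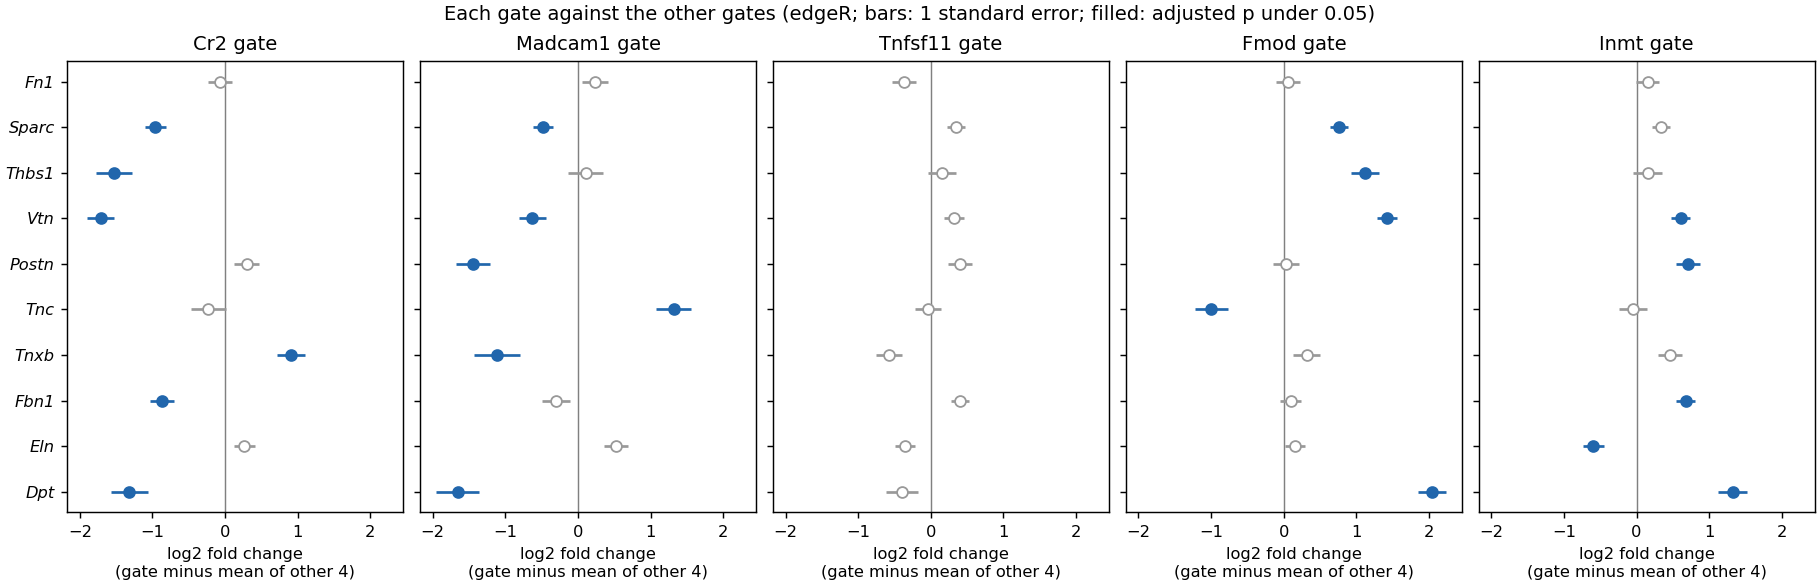
Log2 fold difference of each gate against the mean of the other 4 gates for the 10 members, from edgeR's quasi-likelihood fit of 15 sums, with the members that passed the test marked. The Cr2 column holds the lowest values for Vtn (-1.71) and Thbs1 (-1.53), and the Fmod column the highest for Dpt (2.04) and Vtn (1.42).

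The members lie on separate chromosomal regions of the mouse genome (GRCm38, GENCODE M21), all as protein-coding genes. Fn1 (ENSMUSG00000026193) spans chr1:71585520-71653200 on the minus strand, Vtn (ENSMUSG00000017344) chr11:78499091-78502324 on the plus strand, Sparc (ENSMUSG00000018593) chr11:55394500-55423183 on the minus strand, and Thbs1 (ENSMUSG00000040152) chr2:118111876-118127133 on the plus strand. Postn (ENSMUSG00000027750) spans chr3:54361109-54391037 on the plus strand, Tnc (ENSMUSG00000028364) chr4:63959785-64047015 on the minus strand, and Tnxb (ENSMUSG00000033327) chr17:34670535-34719815 on the plus strand. Fbn1 (ENSMUSG00000027204) spans chr2:125300594-125507993 on the minus strand, Eln (ENSMUSG00000029675) chr5:134702593-134747323 on the minus strand, and Dpt (ENSMUSG00000026574) chr1:164796644-164824266 on the plus strand. No other annotated gene overlaps a member on its own strand. A partial copy of Tnxb, Tnxa, had 0 UMIs in the retained cells of every library, against 599, 434 and 113 UMIs of Tnxb.

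Promoter sequences were at hand for 7 members (RefSeq, GRCm38.p6). Those of Dpt and Vtn are shown because they had the largest differences of the members in the Fmod gate, and that of Tnc because it was the only member lower there. Each runs 5′ to 3′ on the gene's strand from base -250 to base -31 before the annotated start, with matches to the searched motifs in capitals: Vtn at chr11:78498870-78499089 (plus strand), Dpt at chr1:164796413-164796632 (plus strand) and Tnc at chr4:64047046-64047265 (minus strand).
Vtn: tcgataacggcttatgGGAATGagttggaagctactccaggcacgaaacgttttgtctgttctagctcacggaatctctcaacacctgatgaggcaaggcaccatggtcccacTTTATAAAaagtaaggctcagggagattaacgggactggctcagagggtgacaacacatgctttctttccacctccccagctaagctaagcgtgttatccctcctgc
Dpt: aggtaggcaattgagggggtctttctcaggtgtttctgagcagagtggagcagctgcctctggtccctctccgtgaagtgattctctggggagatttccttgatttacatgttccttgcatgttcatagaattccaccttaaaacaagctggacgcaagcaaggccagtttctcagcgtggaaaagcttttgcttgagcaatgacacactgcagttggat
Tnc: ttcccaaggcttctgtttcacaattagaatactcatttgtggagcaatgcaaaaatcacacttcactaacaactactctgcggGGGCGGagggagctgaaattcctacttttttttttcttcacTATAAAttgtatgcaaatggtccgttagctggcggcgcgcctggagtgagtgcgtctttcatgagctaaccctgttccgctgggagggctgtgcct
The motifs searched on both strands were TATAAA (the TATA box, found in 9.954% of 32851 windows of the same 220 bases), CCAAT (31.01%), GGGCGG (28.5%), TGACTCA (the AP-1 site, 4.012%), GGAATG (the TEAD site, 11.44%) and CACGTG (5.007%). In the Vtn window GGAATG matched on the given strand and TATAAA on both strands at overlapping positions. In the Tnc window TATAAA and GGGCGG matched, and in the Dpt window none of the 6 did. The windows end at base -31, so the bases nearest the start were not searched. A match gives the sequence only, and its use as a promoter element was not tested.

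Vitronectin, an adhesive glycoprotein best known from plasma, was highest in the Fmod gate and lowest in the Cr2 gate in every library. Vtn stood at 647, 337 and 464 CPM in the Fmod gate of 2-IC replicate 1, 2-IC replicate 2 and 1-IC, and at 122, 79.1 and 49.8 CPM in the Cr2 gate. The Inmt gate held 438, 218 and 247 CPM, the Tnfsf11 gate 346, 235 and 218 CPM and the Madcam1 gate 251, 150 and 64.9 CPM. The Fmod and Cr2 gates did not overlap, while the gates between them did. Against the mean of the other gates Vtn was higher in the Fmod gate by 1.42 on the log2 scale (SE 0.14, adjusted p = 6.06e-08, edgeR) and lower in the Cr2 gate, at -1.71 (SE 0.18, adjusted p = 2.59e-08), and both passed under each of the 15 alternative settings that changed the counts, sums or fit. The Inmt gate was higher by 0.61 (SE 0.14, adjusted p = 0.00246), but not without 2-IC replicate 1 (0.60, adjusted p = 0.106). The Madcam1 gate stood at -0.63 (adjusted p = 0.0466), and that call was lost when any library was left out.

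In the order of mean levels of Vtn, Fmod, Inmt, Tnfsf11, Madcam1 and Cr2, 3 of the 4 neighbouring gates passed the test between them by edgeR: Fmod above Inmt by 0.65 (adjusted p = 0.0362, where 2.16% of all genes passed), Tnfsf11 above Madcam1 by 0.76 (adjusted p = 0.0305, 4.92% of all genes) and Madcam1 above Cr2 by 0.87 (adjusted p = 0.0364, 4.81%). Each of these was lost without 2-IC replicate 1 and without 2-IC replicate 2. The Inmt and Tnfsf11 gates did not pass (adjusted p = 0.637). Vtn was found in 89.1% ± 4.56 of cells of the Fmod gate and 20.9% ± 9.43 of the Cr2 gate (SD, n = 3 libraries), and with each cell thinned to 2000 UMIs in 51.9% ± 11.5 and 11.6% ± 6.71. Cells of the Fmod gate were the deepest gated cells, with medians of 6486.5, 19137 and 7730 UMIs. In B cell barcodes, which the contaminant filter left out and which should make no vitronectin, the unthinned share was 5.32% ± 3.22 at median depths of 4281, 6069 and 3291 UMIs.

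**Figure D2:**
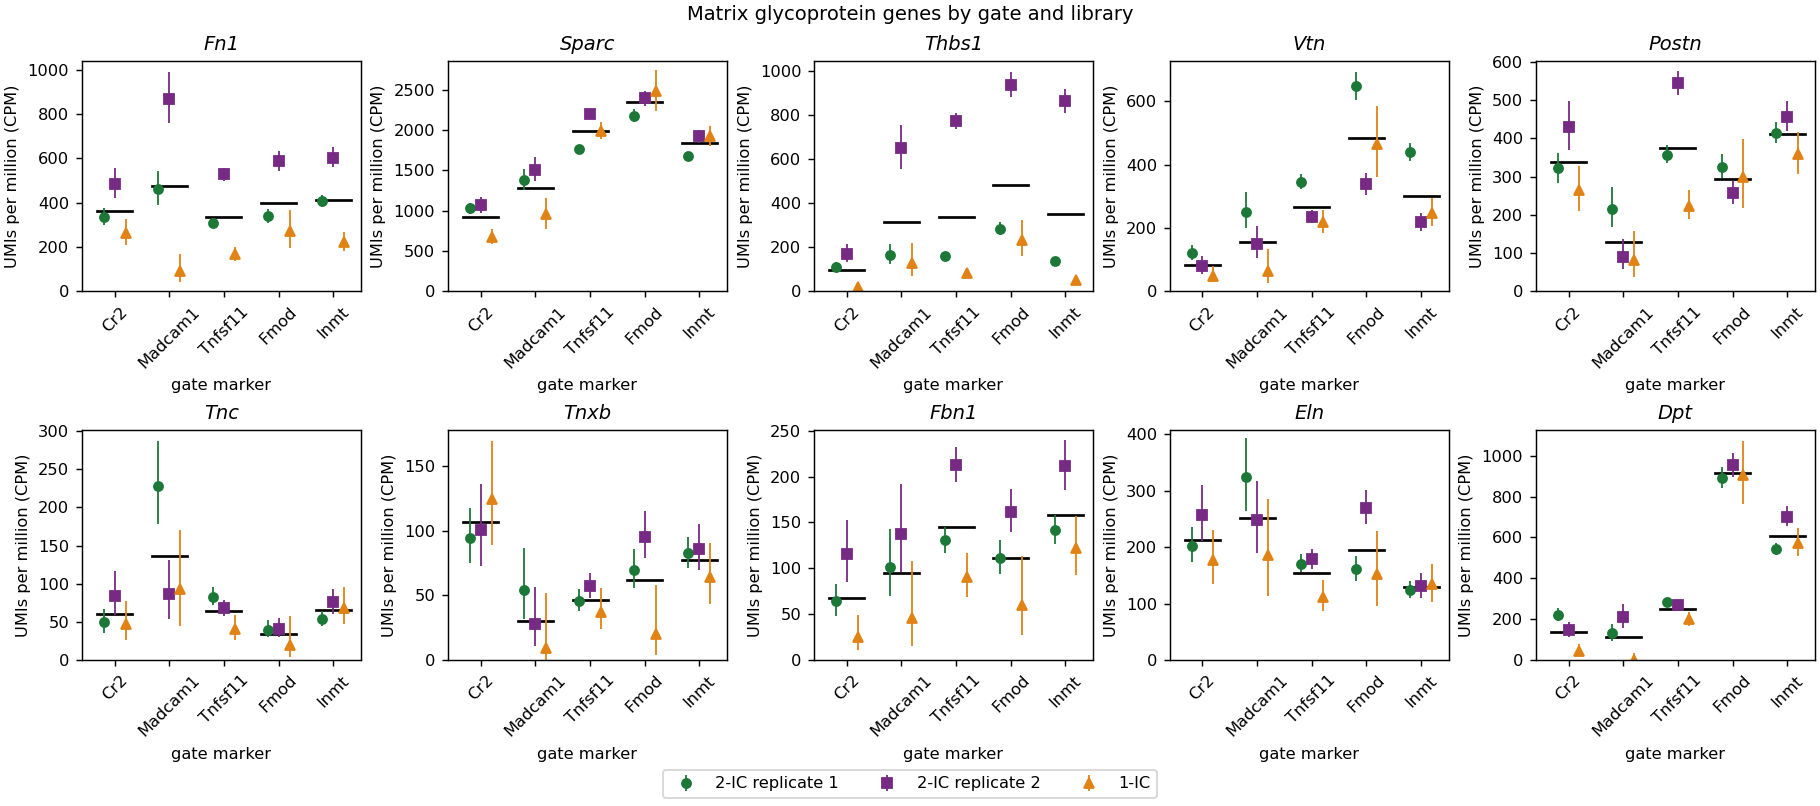
CPM of each member by gate (horizontal axis) and library (green circles, 2-IC replicate 1; purple squares, 2-IC replicate 2; orange triangles, 1-IC), with exact 95% counting intervals and black bars for the mean of the 3 libraries. Vtn, Sparc and Dpt have their highest means in the Fmod gate, at 483, 2352 and 918 CPM, while the symbols of Thbs1 and Fn1 separate by library.

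Fibronectin, the adhesive glycoprotein that cells assemble into fibrils and on which other matrix proteins are laid down, was the member whose gates were least apart. Its mean level over the libraries was 362 ± 112 CPM in the Cr2 gate, 474 ± 389 CPM in the Madcam1 gate, 335 ± 182 CPM in the Tnfsf11 gate, 399 ± 166 CPM in the Fmod gate and 411 ± 191 CPM in the Inmt gate (SD, n = 3). In the order of mean levels, Madcam1, Inmt, Fmod, Cr2 and Tnfsf11, all 4 neighbouring gates overlapped and did not pass the test (adjusted p between 0.481 and 0.951, edgeR), including the Fmod and Cr2 gates and the Cr2 and Tnfsf11 gates, between which 21.3% and 20.2% of all genes passed. In all 5 gates 1-IC was the lowest library and 2-IC replicate 2 the highest, and in the Cr2 and Madcam1 gates the place of replicate 2 rested on 1 cell each. In the Madcam1 gate Fn1 stood at 460, 870 and 92.7 CPM, and 1 cell of replicate 2 held 144 of its 221 UMIs there. In the Cr2 gate it stood at 337, 484 and 265 CPM, and 1 cell of replicate 2 held 86 of its 202 UMIs. With the top cell of each library left out, replicates 1 and 2 stood at 374 and 352 CPM in the Madcam1 gate and at 298 and 296 CPM in the Cr2 gate. Without 1-IC the F test over the gates passed for Fn1 (adjusted p = 0.0219).

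Sparc encodes osteonectin, a calcium- and collagen-binding matricellular protein. It was lowest in the Cr2 gate in every library, at 1032, 1067 and 679 CPM, and highest in the Fmod gate in every library, at 2179, 2393 and 2485 CPM. The other gates held 1387, 1511 and 954 CPM (Madcam1), 1761, 2199 and 1995 CPM (Tnfsf11) and 1676, 1923 and 1923 CPM (Inmt). The Cr2 gate thus overlapped only the Madcam1 gate. Sparc was lower in the Cr2 gate, at -0.96 (SE 0.14, adjusted p = 5.74e-06, edgeR), in each of those 15 settings, and higher in the Fmod gate by 0.76 (SE 0.12, adjusted p = 0.000129). The Madcam1 gate stood at -0.48 (SE 0.14, adjusted p = 0.0388), a call that was lost without 2-IC replicate 1 (-0.57, adjusted p = 0.231) and without 1-IC (-0.32, adjusted p = 0.142).

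Of the neighbouring gates, only the Inmt gate above the Madcam1 gate passed for Sparc (0.65, adjusted p = 0.00876, edgeR, where 11.6% of all genes passed), and not without 2-IC replicate 1 or without 1-IC. Fmod, Tnfsf11 and Inmt, the 3 highest gates, were not separated from their neighbours (adjusted p = 0.398 and 0.998). Sparc was found in 99.6% ± 0.649 of cells of the Fmod gate, 79.4% ± 5.10 of the Cr2 gate and 13.6% ± 8.82 of the B cell barcodes (SD, n = 3). At 2000 UMIs a cell the shares were 94.6% ± 5.27 and 60.0% ± 6.38 in the Fmod and Cr2 gates. In B cell barcodes Sparc stood at 105, 44.7 and 31.9 CPM in the 3 libraries.

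Thrombospondin 1 was the member with the widest spread between libraries. In the order 2-IC replicate 1, 2-IC replicate 2 and 1-IC, Thbs1 stood at 285, 939 and 232 CPM in the Fmod gate and at 109, 170 and 18.7 CPM in the Cr2 gate. The Inmt gate held 139, 863 and 51.5 CPM, the Tnfsf11 gate 162, 774 and 82.6 CPM and the Madcam1 gate 165, 649 and 130 CPM. Within every library the Fmod gate was the highest of the gates and the Cr2 gate the lowest, although the gates overlapped across libraries. With the library as a block Thbs1 was lower in the Cr2 gate, at -1.53 (SE 0.25, adjusted p = 2.86e-05, edgeR), and higher in the Fmod gate by 1.12 (SE 0.20, adjusted p = 0.000332), and both calls were lost without the block (adjusted p = 0.177 and 0.704). Madcam1 stood above Cr2 by 1.31 (adjusted p = 0.0111), but not without 2-IC replicate 2 (0.86, adjusted p = 0.250), where 1 cell held 109 of the 165 Thbs1 UMIs of the Madcam1 gate. Without that cell the Madcam1 gate of replicate 2 stood at 234 CPM.

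Periostin, a matricellular protein that binds collagen and fibronectin, was lowest in the Madcam1 gate. Postn stood there at 216, 90.5 and 83.4 CPM, below every other gate of the same library, of which the lowest were 322 CPM (Cr2), 257 CPM (Fmod) and 224 CPM (Tnfsf11). The Inmt gate had 415, 457 and 359 CPM, the Fmod gate 326, 257 and 298 CPM, the Tnfsf11 gate 358, 545 and 224 CPM and the Cr2 gate 322, 429 and 265 CPM. Postn was lower in the Madcam1 gate, at -1.44 (SE 0.23, adjusted p = 0.000244, edgeR), and higher in the Inmt gate by 0.71 (SE 0.16, adjusted p = 0.00288). The Fmod gate was above the Madcam1 gate by 1.18 (adjusted p = 0.00415, where 8.99% of all genes passed), while the 4 higher gates were not separated from their neighbours (adjusted p from 0.578 to 0.831). The Madcam1 call was lost with the contaminant filter left out (-0.21, adjusted p = 0.572) and with exclusive gates (-0.24, adjusted p = 0.953). The Inmt call was lost with cells thinned to 2000 UMIs and without the library block.

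Within the Cr2 gate Postn differed between cells with much and little Malat1, a nuclear RNA that is scarce in barcodes with little nuclear content. In the 35, 10 and 18 cells of the Cr2 gate with under 1% Malat1 Postn stood at 789, 525 and 745 CPM, against 229, 413 and 165 CPM in the other 110, 25 and 32 cells, so it was higher in the cells with little Malat1 in 3 of 3 libraries. Outside the Cr2 gate Postn stood at 350, 129 and 91.9 CPM in retained cells with little Malat1 and at 356, 427 and 252 CPM in the others. Sparc moved the other way in the Cr2 gate (789, 394 and 527 CPM with little Malat1, 1080, 1183 and 710 CPM in the others), and so did Eln (99.5, 49.2 and 0 CPM against 223, 292 and 214 CPM). Fn1, Thbs1, Vtn, Fbn1 and Dpt were likewise lower in its cells with little Malat1 in 3 of 3 libraries, some with 0 UMIs there. Tnc and Tnxb were lower in some libraries and not in others. Outside that gate Sparc stood at 2066, 2171 and 1352 CPM with little Malat1 and at 1730, 2155 and 1875 CPM in the others. These splits were made after the values were seen, and they were not tested.

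Tenascin C, a large matricellular protein of remodelling tissue, was highest in the Madcam1 gate. Tnc stood there at 228, 86.6 and 92.7 CPM, above every other gate of the same library, and was lowest in the Fmod gate, at 40.0, 41.3 and 19.9 CPM. The Cr2, Tnfsf11 and Inmt gates lay between 40.5 and 83.9 CPM. Tnc was higher in the Madcam1 gate by 1.32 (SE 0.25, adjusted p = 0.00103, edgeR) and lower in the Fmod gate, at -0.99 (SE 0.23, adjusted p = 0.00500). The value of replicate 1 carried the first: without 2-IC replicate 1 it was 0.58 (adjusted p = 0.418), and the Madcam1 gate stood above the Inmt gate by 1.10 (adjusted p = 0.00717) with it and by 0.15 (adjusted p = 0.885) without it. Neither the Cr2 nor the Tnfsf11 or Inmt gate was separated from its neighbours below the Madcam1 gate (adjusted p from 0.186 to 1). Tnc was listed at 1.41 ± 2.44 CPM in B cell barcodes (SD, n = 3).

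Tenascin X, which binds collagen fibrils and supports their spacing, was the only member that passed the test as higher in the Cr2 gate. Tnxb stood at 94.6, 101 and 125 CPM in the Cr2 gate, above every value of the other gates of the same library. The Inmt gate held 82.7, 86.2 and 63.9 CPM, the Fmod gate 69.8, 95.5 and 19.9 CPM, the Tnfsf11 gate 45.6, 57.0 and 37.4 CPM and the Madcam1 gate 53.9, 27.5 and 9.27 CPM. Tnxb was higher in the Cr2 gate by 0.91 (SE 0.19, adjusted p = 0.000847, edgeR) and lower in the Madcam1 gate, at -1.12 (SE 0.32, adjusted p = 0.0359), the latter only with all 3 libraries. The Cr2 and Inmt gates, its 2 highest, were not separated (adjusted p = 0.235, where 25.6% of all genes passed), and the Fmod gate passed above the Tnfsf11 gate by 0.72 (adjusted p = 0.0496, where 3.68% of all genes passed), but not without either 2-IC library. With the contaminant filter left out the Cr2 difference of Tnxb was 0.14 (adjusted p = 0.524).

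Dermatopontin, a small protein that binds decorin and promotes collagen fibril assembly, had the largest differences between gates among the members. Dpt stood at 892, 953 and 908 CPM in the Fmod gate and at 543, 702 and 573 CPM in the Inmt gate. The Tnfsf11 gate held 282, 271 and 199 CPM, the Cr2 gate 220, 146 and 46.7 CPM and the Madcam1 gate 130, 209 and 0 CPM, with 0 UMIs in the 17 cells of 1-IC. There a floor of 3 counts is 27.8 CPM, and the exact 95% upper limit is 34.2 CPM. The Fmod gate lay above the Inmt gate and the Inmt gate above the other 3 in every library. Dpt was higher in the Fmod gate by 2.04 (SE 0.20, adjusted p = 7.27e-08, edgeR), in each of the 15 alternative settings, and in the Inmt gate by 1.33 (SE 0.20, adjusted p = 2.47e-05). It was lower in the Cr2 gate, at -1.32 (SE 0.26, adjusted p = 0.000287), and in the Madcam1 gate, at -1.66 (SE 0.30, adjusted p = 0.000789), the last not without 2-IC replicate 1 (-1.57, adjusted p = 0.0541). Inmt stood above Tnfsf11 by 1.38 (adjusted p = 0.00202, where 2.81% of all genes passed), although not without 2-IC replicate 1 (1.57, adjusted p = 0.0666), and Fmod and Inmt were not separated (adjusted p = 0.380).

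Dpt was found in 86.8% ± 8.99 of cells of the Fmod gate, 17.6% ± 10.6 of the Cr2 gate and 6.79% ± 4.68 of B cell barcodes (SD, n = 3), and at 2000 UMIs a cell in 65.5% ± 11.2 and 11.4% ± 8.26 of the Fmod and Cr2 gates. The B cell share was not thinned.

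Fibrillin 1 forms the microfibrils on which elastin is deposited. Fbn1 was lowest in the Cr2 gate in every library, at 63.9, 115 and 24.9 CPM, and stood at 142, 211 and 122 CPM in the Inmt gate and 130.5, 213 and 90.4 CPM in the Tnfsf11 gate. The Fmod gate held 111, 162 and 59.6 CPM and the Madcam1 gate 102, 138 and 46.3 CPM. Fbn1 was lower in the Cr2 gate, at -0.87 (SE 0.17, adjusted p = 0.000312, edgeR), and higher in the Inmt gate by 0.68 (SE 0.13, adjusted p = 0.000414), while none of the 4 neighbouring gates passed (adjusted p from 0.416 to 0.610). Both the Cr2 and the Inmt call were lost without the library block, and the Inmt call also with cells thinned to 2000 UMIs.

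Elastin, the core protein of elastic fibres, stood in almost the reverse order of fibrillin 1. Eln was at 124, 131 and 134 CPM in the Inmt gate, against 324, 248 and 185 CPM in the Madcam1 gate and 202, 257 and 177 CPM in the Cr2 gate. The Fmod gate held 161, 270 and 152 CPM and the Tnfsf11 gate 171, 178 and 112 CPM, so the Inmt gate was the lowest in both 2-IC libraries and the Tnfsf11 gate in 1-IC. Eln was lower in the Inmt gate, at -0.60 (SE 0.14, adjusted p = 0.00394, edgeR), but not without 2-IC replicate 1 (-0.49, adjusted p = 0.154) or without 2-IC replicate 2 (-0.46, adjusted p = 0.0909). None of its neighbouring gates passed (adjusted p from 0.239 to 0.798).

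Between the libraries the members were compared over all retained cells, without a test, since the 1-IC group has 1 library. From 1-IC to 2-IC replicate 1, 1 of the 10 members, Thbs1, was at least 2-fold higher, where 1.58% of 3109 genes were so (2.35% in either direction, 0.772% lower), counting genes that reached 50 CPM in one of the libraries. From 1-IC to 2-IC replicate 2, 3 members, Thbs1, Fn1 and Fbn1, were at least 2-fold higher, where 8.02% of 3440 genes were (12.3% in either direction, 4.3% lower). From 2-IC replicate 1 to 2-IC replicate 2, libraries of the same group, 1 member, again Thbs1, was at least 2-fold higher, where 4.27% of 3395 genes were (5.51% in either direction, 1.24% lower). No member was 2-fold lower in these pairs. Levels summed over cells cannot tell fewer expressing cells from less RNA per cell.

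Thbs1 stood at 174, 793 and 80.1 CPM in all retained cells of 2-IC replicate 1, 2-IC replicate 2 and 1-IC. Replicate 2 was 4.57-fold above replicate 1 (log2 ratio 2.19, 95% counting interval 2.11 to 2.28), and replicate 1 was 2.17-fold above 1-IC (log2 ratio 1.12, 0.88 to 1.36). The difference within the 2-IC group was therefore larger than that between replicate 1 and 1-IC, and replicate 2 was the highest and 1-IC the lowest library in all 5 gates. Thinned to 2000 UMIs a cell, the levels were 157, 741 and 81.2 CPM, and the ratio of replicate 1 to 1-IC was 1.94. Platelets carry much thrombospondin 1. The summed level of 5 platelet markers in retained cells was 43.3, 31.0 and 43.0 CPM, with UMIs of Pf4, Itga2b and Gp1bb and none of Gp9 and Ppbp. The summed level of 20 immediate early and stress genes was 33821, 28726 and 27940 CPM. The part of either in the level of Thbs1 was not tested.

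Fn1 stood at 366, 584 and 198 CPM, and replicate 2 was 2.94-fold above 1-IC and 1.59-fold above replicate 1. Fbn1 stood at 124, 205 and 88.0 CPM, with replicate 2 2.33-fold above 1-IC. Vtn went differently, at 413, 247 and 216 CPM, and was highest in replicate 1 in all 5 gates. Sparc (1709, 2075 and 1665 CPM), Postn (352, 424 and 248 CPM), Tnc (70.3, 69.8 and 50.9 CPM), Tnxb (71.8, 76.5 and 55.9 CPM), Eln (172, 196 and 143 CPM) and Dpt (475, 513 and 334 CPM) all lay within 2-fold and were lowest in 1-IC.

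**Figure D3:**
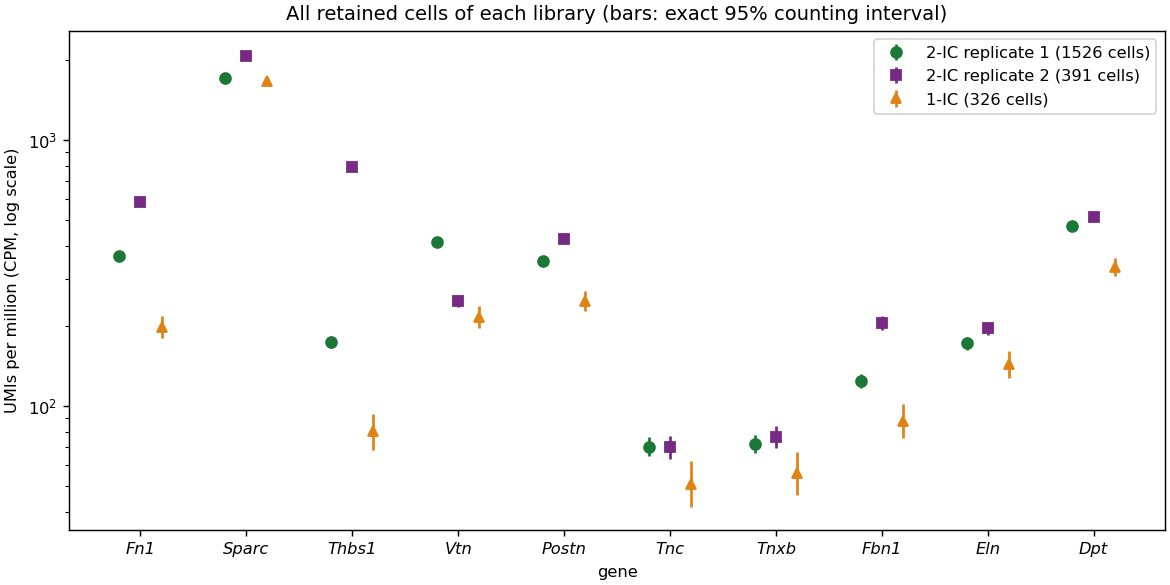
CPM of each member in all retained cells of the 3 libraries on a log scale, with exact 95% counting intervals. Thbs1 spans 80.1 to 793 CPM, while Sparc spans 1665 to 2075 CPM.

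The variance of the log2 level over the 15 sums was divided between gates and libraries. For Sparc, Postn and Vtn the gates held 85.5%, 75.6% and 74.5% of it, and the libraries 3.09%, 8.48% and 17.6%. For Fn1 the gates held 4.60% and the libraries 70.3%, and for Thbs1 28.8% and 64.0%. Fbn1 was divided more evenly (41.3% gates, 51.0% libraries). Over the genes tested the median shares were 30.8% for gates and 25.1% for libraries.

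**Figure D4:**
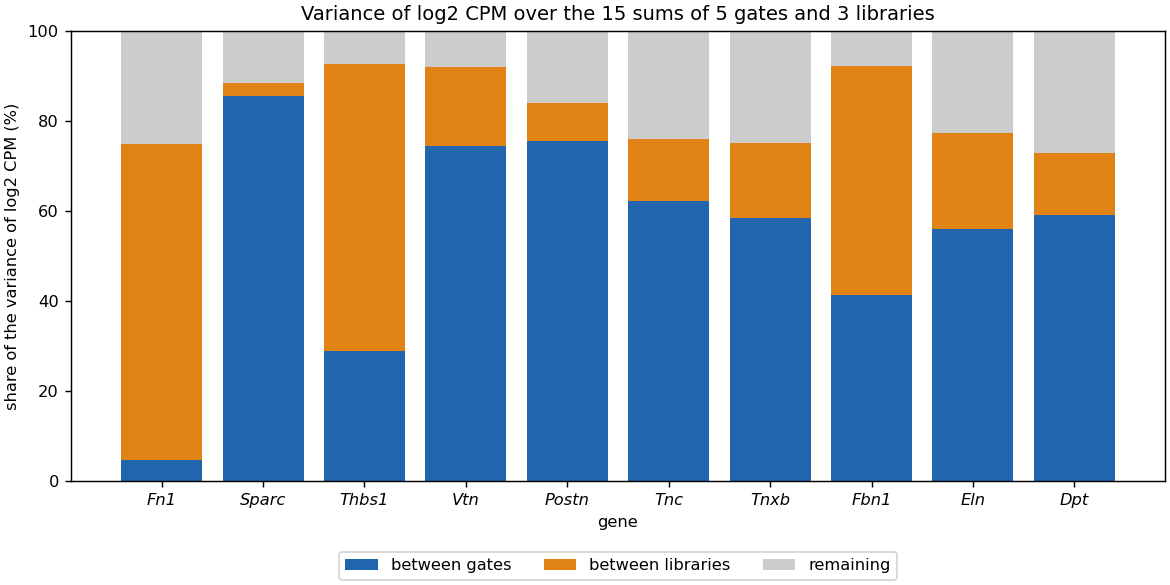
Share of the variance of log2 CPM over the 15 sums that lies between gates (blue), between libraries (orange) or in neither (grey), for each member. Fn1 and Thbs1 are mostly orange (70.3% and 64.0%), and Sparc is mostly blue (85.5%).

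The number of Thbs1 UMIs per cell differed between the libraries as the level did. At 2000 UMIs a cell, Thbs1 was found in 228 of 1307 cells of 2-IC replicate 1 (17.4%), 130 of 346 of 2-IC replicate 2 (37.6%) and 27 of 271 of 1-IC (9.96%). At least 5 Thbs1 UMIs were held by 12 of 1307 cells (0.918%), 31 of 346 cells (8.96%, exact 95% interval 6.17 to 12.5%) and 0 of 271 cells (exact 95% upper bound 1.35%). The highest cells held 11, 32 and 4. The 10% of cells with the most Thbs1 held 76.4% and 63.4% of its UMIs in replicates 1 and 2. The same share was 97.7% and 93.8% for Tnc, 53.7% and 55.3% for Fn1 and 28.0% and 33.0% for Sparc, and it depends on how many UMIs a gene has. The 31 cells of replicate 2 lay in the Tnfsf11 (11 of 131), Fmod (8 of 57), Inmt (7 of 82) and Madcam1 (1 of 14) gates and among cells of no gate (4 of 28). In the Cr2 gate 0 of 34 cells were among them. The exact 95% upper bound there is 10.3%, above the 8.96% of the library, so the count cannot show that the gate differs.

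**Figure D5:**
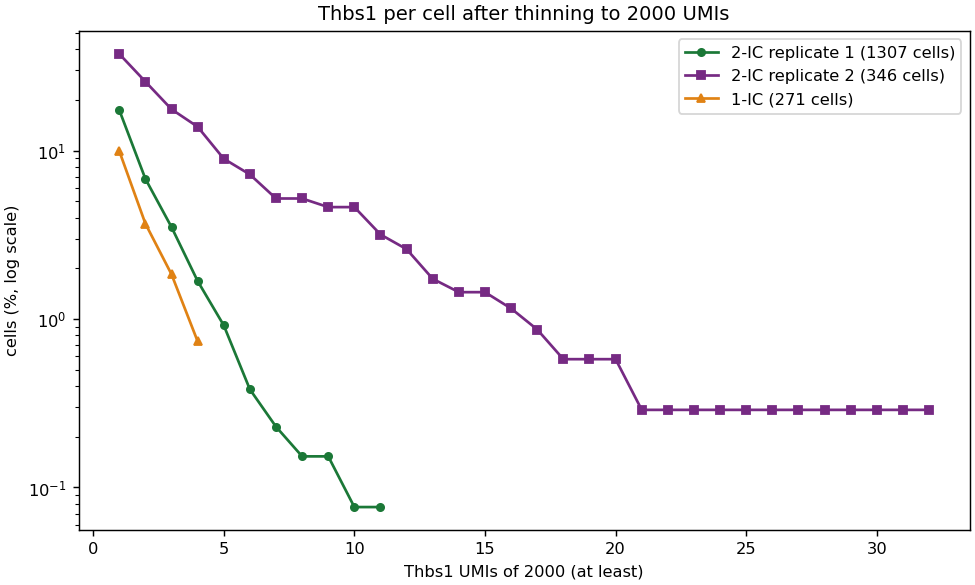
Share of cells (%, log axis) with at least the number of Thbs1 UMIs on the horizontal axis, after each cell was thinned to 2000 UMIs, by library. At 5 UMIs the shares are 8.96% for 2-IC replicate 2, 0.918% for 2-IC replicate 1 and 0 of 271 cells for 1-IC.

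In those 31 cells, chosen by their Thbs1 count, the other members were described without a test. Dpt stood at 710 CPM (515.7 to 953) against 465 CPM (413 to 521) in the other 315 cells, and Sparc at 2048 CPM (1708 to 2437) against 1694 CPM (1594 to 1798). Fn1 stood at 355 CPM (222 to 537) against 519 CPM (464 to 578), and Postn at 258 CPM (148 to 419) against 417 CPM (369 to 471). Counting intervals of the 31 cells and the others overlapped for all 4, and also for Vtn, Tnc, Tnxb, Fbn1 and Eln. In the 12 such cells of 2-IC replicate 1 Fn1 and Postn went the other way. Fn1 stood at 542 CPM (288 to 926) against 353 CPM in the other 1295 cells, and Postn at 458 CPM (229 to 820) against 356 CPM. Dpt (1000 CPM, 641 to 1488, against 473 CPM, 447 to 500) and Sparc (1708 CPM, 1226 to 2318, against 1526 CPM, 1479 to 1574) were higher there too. In these 12 cells the intervals overlapped for Sparc and not for Dpt.

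The other genes of the matrix were read from lists. Of 20 elastic fibre and microfibril genes 17 were tested, and 16 differed between gates (edgeR, F test), where 25.3% of all genes did. In the Cr2 gate 0 of the 17 were higher and 8 lower (median log2 fold -0.93), where 11.9% of all genes were higher and 9.04% lower (median 0.01). In the Inmt gate 10 were higher and 2 lower (median 0.93), where 8.03% of all genes were higher and 5.56% lower (median 0.00). Of the 17, 2 were higher and 4 lower in the Madcam1 gate (median -0.23), where 2.73% of all genes were higher and 2.54% lower (median -0.01). The 2 higher there were Ltbp2, by 1.58 (adjusted p = 2.14e-08, edgeR), and Ltbp1, by 1.26 (adjusted p = 0.000356). Both belong to the latent TGF-beta binding protein family. Efemp2, fibulin 4, was lower in the Cr2 gate, at -0.93 (adjusted p = 0.000217), and Emilin1 passed in no gate (adjusted p from 0.443 to 0.919).

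Of 22 matricellular genes 8 were tested. Among these 3 were higher and 4 lower in the Cr2 gate (median -0.84), where 11.9% of all genes were higher and 9.04% lower (median 0.01). In the Fmod gate 3 were higher and 2 lower (median 0.43), where 5.52% of all genes were higher and 3.16% lower (median 0.00). Thbs2, the closest relative of Thbs1, was lower in the Cr2 gate (-1.10, adjusted p = 5.12e-05, edgeR) and the Madcam1 gate (-1.01, adjusted p = 0.00686) and higher in the Fmod gate (0.92) and the Inmt gate (1.07, adjusted p = 1.78e-06). Tgfbi, which encodes an integrin ligand related to periostin, was lower in the Cr2 gate (-1.38, adjusted p = 1.51e-06) and higher in the Fmod gate (1.03, adjusted p = 3.17e-05). Cyr61 and Fstl1 were higher in the Cr2 gate, by 0.51 (adjusted p = 0.0154) and 0.48 (adjusted p = 0.00348).

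Of 23 basement membrane genes 10 were tested. In the Cr2 gate 3 were higher and 6 lower (median -0.84; all genes 11.9% and 9.04%, median 0.01), and in the Fmod gate 5 were higher and 0 lower (median 0.43; all genes 5.52% and 3.16%, median 0.00). The laminin chains went different ways in the Cr2 gate: Lamc1 (-1.01, adjusted p = 5.81e-05, edgeR), Lamb2 (-0.72, adjusted p = 0.00579) and Lama4 (-1.34, adjusted p = 0.000917) were lower, while Lamb1 was higher (0.55, adjusted p = 0.0187).

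Of 27 receptor genes 15 were tested. Among these 2 were higher and 4 lower in the Cr2 gate (median -0.30; all genes 11.9% and 9.04%, median 0.01), and in the Inmt gate 5 were higher and 3 lower (median 0.12; all genes 8.03% and 5.56%, median 0.00). Cd47, a receptor of thrombospondin 1, Itgb1, the beta chain shared by most matrix-binding integrins, and Dag1, dystroglycan, passed in no gate (adjusted p from 0.122 to 0.990, edgeR). Lrp1, an endocytic receptor that takes up thrombospondins, was lower in the Cr2 gate (-1.37, adjusted p = 1.24e-05) and the Madcam1 gate (-1.08, adjusted p = 0.00555) and higher in the Fmod gate (0.83) and the Inmt gate (1.13, adjusted p = 1.09e-05).

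Other measures also differed between the gates, and not in the Cr2 gate alone. Of 20 immediate early and stress genes, which enzymatic dissociation is known to induce, 3 were higher and 15 lower in the Cr2 gate, where 11.9% of all genes were higher and 9.04% lower, and 16 were higher and 1 lower in the Inmt gate, where 8.03% were higher and 5.56% lower (edgeR). Egr1 stood at -0.93 (adjusted p = 5.75e-05) in the Cr2 gate and at 1.03 (adjusted p = 5.69e-06) in the Inmt gate. In the Madcam1 gate 2 of the 20 were higher and 10 lower, where 2.73% of all genes were higher and 2.54% lower. Of the 5 general fibroblast markers Pdgfrb (-1.65), Col1a1 (-1.07) and Col1a2 (-1.19) were lower in the Cr2 gate and 0 were higher. The summed level of the 5 B cell markers was 898, 379 and 753 CPM in the Cr2 gate and 492, 179 and 470.0 CPM in the Inmt gate, with Cd79a and Cd79b at 0 by the filter. It was 819, 275 and 639 CPM in the Madcam1 gate, 608, 207 and 828 CPM in the Tnfsf11 gate and 412, 210 and 557 CPM in the Fmod gate. Cells of no gate held 965, 291 and 2184 CPM. Little Malat1 was found in 63 of the 230 cells of the Cr2 gate and 388 of the 2243 retained cells. Without the cells with little Malat1, 20 of the 22 differences of the members still passed. The part of the stress genes, fibroblast markers and B cell RNA in the results was not tested.

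The genes whose levels over the 15 sums were most like those of a member were named by Pearson's r of log2 CPM among 2992 genes, as a description over sums that share libraries. For Sparc they were Serping1 (0.95), Gstt1 (0.94) and Vegfc (0.93), and for Vtn Grn (0.96), Arhgdib (0.94) and Rpl14 (0.94). For Fn1 they were Smg1 (0.93), Dock1 (0.93) and Cltc (0.91), and for Thbs1 Il33 (0.91), Rnf150 (0.89) and Adam12 (0.89). Among the members, with each library centred, Sparc and Vtn were the most alike (r = 0.98 over 15 sums), followed by Vtn with Dpt (0.82), Sparc with Fbn1 (0.82) and Sparc with Dpt (0.80).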

How the data were processed

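PDPN+ TdTomato+ lymph node stromal cells were profiled with 10x Genomics 3' chemistry (the kit version is not the same in all sources) as 3 libraries. The authors deposited filtered matrices of raw UMI counts per gene and barcode, aligned with Cell Ranger to GRCm38 with Ensembl 89 gene models; the version in the file headers differs from that in the study's methods. No authors' cell annotation was used. Samples were grouped by their titles.

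Cells were kept by the study's limits given in the report. Counts were summed per library and gate and tested with edgeR 4.0.16 (TMM, filterByExpr, quasi-likelihood, library as block, 15 sums, 8 residual degrees of freedom), in R 4.3.3, with Benjamini-Hochberg adjustment over all 8531 genes and a threshold of 0.05. Gates of 1 library share a suspension and a run, which is where the pairing comes from. The paper describes independent experiments with nodes of several mice pooled, but does not state which mice went into which library. The p-values therefore measure the spread between these sums, which may be technical, and the SDs span both treatments. The scripts were tested on simulated data. Libraries were compared by CPM ratios with exact 95% intervals, which cover counting error only, among genes with at least 50 CPM, and a count of 0 was given a floor of 3 counts. Variance shares and likeness used log2 CPM with a prior count of 2. Doublets were left in, and Scrublet (scanpy 1.11.5) marked 42 of the retained cells, which were left out in an alternative. B cell barcodes had a UMI each of Cd79a, Cd79b and Ms4a1 and none of Pdgfra and Pdgfrb.

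The genes, gates and lists were chosen with earlier results of these data known. Named were the 10 members, of each list the 4 genes with the highest mean level, and for Fn1, Sparc, Thbs1 and Vtn the 3 genes most like each. Alternatives changed the tool (DESeq2 1.42.0), the size factors, the filters on counts and cells, the gates, the depth and the block, and left out each library. Leaving out shared barcodes and the split by Malat1 within the Cr2 gate were chosen after seeing the data.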

Additional observations from a re-analysis of the deposited data

Results flagged for a closer look

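For 6 of the 50 differences of a gate from the mean of the other gates, the 1-IC library went one way and both 2-IC libraries the other, in log2 (CPM + 2). These differences between the groups were not tested, since the 1-IC group has 1 library. How often other genes split in this way was not computed, so the count cannot show that the members are unusual. Fn1 in the Madcam1 gate stood at -1.28 in 1-IC, against 0.41 and 0.66 in 2-IC replicates 1 and 2, where single cells held 34 of 145 and 144 of 221 of its UMIs. In the Cr2 gate Fn1 stood at 0.59 in 1-IC against -0.15 and -0.39, and in the Fmod gate at 0.64 against -0.14 and -0.05. A single cell of 1-IC held 30 of the 85 Fn1 UMIs of the Cr2 gate, which stood at 265 CPM with it and 179 CPM without it. For both gates the mean of the other gates includes the Madcam1 gate of 1-IC, with 10 Fn1 UMIs. Tnxb in the Fmod gate stood at -1.004 in 1-IC, from 19 cells with 3 Tnxb UMIs, against 0.07 and 0.63. In the Tnfsf11 gate Tnxb stood at 0.057 in 1-IC against -0.67 and -0.28. There the mean of the other gates includes that Fmod gate and the Madcam1 gate of 1-IC, with 1 Tnxb UMI. Dpt in the Tnfsf11 gate stood at 1.25 in 1-IC against -0.28 and -0.48, with 0 Dpt UMIs in the Madcam1 gate of 1-IC, which enters the mean of the other gates.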

How the results depend on the processing

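Of the 22 differences of members that passed, 22 still passed with no filter on low counts, 21 with DESeq2, RLE size factors or shared barcodes left out, 20 with Scrublet doublets left out, with cells of little Malat1 left out or with gates of at least 2 UMIs, 19 with no composition factors, 18 with no filter on contaminant genes, 16 with cells thinned to 2000 UMIs, 12 with exclusive gates and 7 with no replicate block. Vtn and Sparc in the Cr2 gate and Vtn and Dpt in the Fmod gate passed in all 15 settings; Vtn in the Madcam1 gate passed in 2, Sparc and Tnxb in the Madcam1 gate in 7, Eln in the Inmt gate in 10 and Tnc in the Fmod gate in 11. A minimum of 5 cells a sum in place of 10 changed no sum, the smallest holding 16 cells, and is not counted. Reversed were Sparc in the Madcam1 gate with exclusive gates (0.011), and with no contaminant filter the pairs Vtn, Madcam1 gate against Cr2 gate (-0.26) and Postn, Fmod gate against Madcam1 gate (-0.0138). The causes were not tested.

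Genes called over all gates (F test, 2158), and in the Cr2 (1783), Madcam1 (450), Tnfsf11 (454), Fmod (741) and Inmt (1159) gates, numbered 1282, 928, 10, 100, 263 and 731 with exclusive gates, for which 2 Madcam1 sums had too few cells and the lone one was assumed to vary like the other sums. They numbered 886, 661, 163, 134, 281 and 504 thinned. Without the library block, that is with no pairing of the sums, they numbered 902, 842, 117, 16, 134 and 269. With no contaminant filter the F test called 4196, Cr2 4259 and Madcam1 1178, and DESeq2 called 235 in the Tnfsf11 gate. Leaving out each library gave 1138 to 1878 for the F test, 965 to 1466 for Cr2, 156 to 364 for Madcam1, 136 to 324 for Tnfsf11, 236 to 726 for Fmod and 542 to 892 for Inmt, each lowest without 2-IC replicate 1.

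Members called, 6 in the Cr2, 6 in the Madcam1, 5 in the Fmod and 5 in the Inmt gate, numbered 3, 2, 2 and 0 without the block. In the Madcam1 gate they numbered 0 with exclusive gates, 3 thinned and 1 to 5 with each library left out, and in the Inmt gate 3 to 5, both lowest without 2-IC replicate 1. In the Tnfsf11 gate (0) they numbered 3 with no filter on low counts, 2 thinned or with no composition factors, 1 with RLE, gates of at least 2 UMIs, exclusive gates or Scrublet doublets left out, and 0 to 1 with each library left out. Of 9 neighbouring gates called, 3 passed with DESeq2, 5 without cells of little Malat1, 4 thinned, 0 without the block and 2 to 7 with each library left out. The F test of Fn1 passed with exclusive gates (adjusted p = 6.80e-07), with no contaminant filter (0.0144) and without 1-IC (0.0219), and that of Eln failed without 2-IC replicate 1 (0.0749). Without the block 6 members passed it, and Eln (0.243), Fbn1 (0.359) and Thbs1 (0.654) did not.

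Of members at least 2-fold apart from 1-IC to 2-IC replicate 1 (1, Thbs1), there were 0 thinned. At a minimum of 200 CPM there were 0 of 5 members compared. Thbs1 was not among these, since it stood at 174 CPM in replicate 1 and 80.1 CPM in 1-IC. That minimum therefore cannot test its difference. All genes so called there (73) numbered 23 at 200 CPM and 134 thinned. At 200 CPM they numbered 107 of 790 from 1-IC to 2-IC replicate 2 (424 of 3440 at 50 CPM) and 45 of 779 from replicate 1 to replicate 2 (187 of 3395). Few cells limit the Madcam1 gate (50, 16 and 17) and the Fmod gate of 1-IC (19).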

Other observations

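In the 448 retained cells with none of the 5 gating genes the libraries stood in the same order as in the gates for Thbs1 and Fn1. Thbs1 stood there at 196, 1033 and 91.9 CPM in 2-IC replicate 1, 2-IC replicate 2 and 1-IC, Fn1 at 434, 771 and 159 CPM. These cells were shallow, with median depths of 2806, 2133 and 2089 UMIs, and their summed level of 6 macrophage markers was 301, 136 and 758 CPM, against 6.63 to 156 CPM in the gated cells.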
